A study of Mus musculus with 4 samples.

Results

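Divergent promoters are stretches of DNA shared by a pair of genes that start close to each other and are transcribed in opposite directions. Here they were taken as pairs of protein-coding genes of the GENCODE annotation, release M21, basic set, on chromosomes 1 to 19, whose gene models point away from each other with their 5' ends at most 1 kb apart. There were 734 such pairs with 1448 genes, which is 6.96% of the 20807 coding genes on these chromosomes. Their members were the H3K27ac peaks (H3K27ac is histone H3 acetylated at lysine 27) that overlapped the interval between both 5' ends or the 500 bp to either side. The replicated list held 793 such peaks of 84452, which is 0.939% of its peaks and 1.53% of the base pairs it covers. Only the annotation and the place of a peak chose the members, so signal values and summits played no part in the choice, while a wider peak is more likely to reach the interval.

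The study mapped H3K27ac with ChIP-seq, which sequences the DNA pulled down with an antibody, in the gastrocnemius muscle of the calf, from B6CASTF1/J mice, a hybrid of C57BL/6J and CAST/EiJ. All 4 libraries came from adult females of 2 months and formed 1 group of 2 biological replicates. For each of them 2 tissue samples were pooled, and its 2 technical replicate libraries shared 1 alignment. Peaks were deposited as 4 lists on mm10, from replicate 1, from replicate 2, from both pooled, and the replicated list made from both. There is no second condition and no read count, so no test was made, every comparison is a description, and the spread is given by the lists of replicate 1 and replicate 2. Whole muscle also holds vessels, nerve and connective tissue, and in such bulk tissue fewer cells of a type and less acetylation per cell cannot be told apart. The lists do not separate the alleles of both parental strains.

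H3K27ac is laid down by the acetyltransferases CBP and p300 and marks active promoters and enhancers, mostly on the nucleosomes that flank the nucleosome-free start site. Divergent coding promoters are common in mammals, tend to lie in CpG islands, and often join genes of basic cell functions such as DNA repair, mitochondria and histones. A single nucleosome-free stretch between both start sites can serve both genes, with marked nucleosomes on either side.

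Most intervals were short. The gap between both 5' ends was 128 bp at the median (quartiles 66.3 and 240.0 bp, range 1 to 987 bp), and 602 of the 734 pairs (82.0%) had a gap of at most 300 bp. The sequence was rich in CpG, with a median observed over expected CpG of 0.777 and 60.3% GC. Both were taken in the window from 500 bp before to 500 bp after the midpoint of the interval. Gene models that overlap head to head are not in the set. 20 genes belonged to more than 1 pair, and 3 pair names stand for 2 pairs each because 2 gene models carry the same symbol.

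The sequences of the pairs named most often in the results are shown here to let the short shared stretches be seen. Each is the whole interval between both 5' ends, without the first base of either gene, read from the mm10 genome on the plus strand and printed 5′ to 3′. The gene named first runs to the left from the first letter and the gene named second runs to the right from the last. Capitals mark matches, on either strand, to CCAAT (the NF-Y box), GGGCGG (the GC box bound by SP factors), CCGGAAGT (bound by ETS factors), the NRF1 site, AANATGGCG (the YY1 site), TGACGTCA (the CRE palindrome) and TATAAA (the TATA box). A match is a string and not a measured site. The first 3 pairs belong to the 10 with the highest signal value. Sqstm1/Mgat4b lies at chr11:50210828-50210889, Ppp1r15a/Plekha4 at chr7:45526269-45526329 and Ddx5/Cep95 at chr11:106789186-106789251.
Sqstm1/Mgat4b: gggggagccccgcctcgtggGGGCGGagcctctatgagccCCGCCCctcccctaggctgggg
Ppp1r15a/Plekha4: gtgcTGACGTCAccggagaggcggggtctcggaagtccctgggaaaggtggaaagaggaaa
Ddx5/Cep95: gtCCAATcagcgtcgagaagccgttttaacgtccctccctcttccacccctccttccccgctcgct

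The next 3 show the collagen IV pair at chr1:82586850-82586920, a pair whose gene on the plus strand is expressed in muscle at chr6:24528014-24528143, and a pair with no peak in any list at chr2:122186190-122186271.
Col4a4/Col4a3: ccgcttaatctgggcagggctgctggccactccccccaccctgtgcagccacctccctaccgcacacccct
Ndufa5/Asb15: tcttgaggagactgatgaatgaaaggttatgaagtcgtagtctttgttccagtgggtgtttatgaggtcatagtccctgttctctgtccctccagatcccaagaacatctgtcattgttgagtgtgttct
Patl2/Terb2: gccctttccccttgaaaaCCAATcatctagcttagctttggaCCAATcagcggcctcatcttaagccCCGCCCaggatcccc

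The last 3 are histone pairs, each an H2A gene beside an H2B gene, chosen after their values were seen. Hist1h2ac/Hist1h2bc at chr13:23683949-23684198 and Hist1h2an/Hist1h2bp at chr13:21787219-21787460 had a peak, while Hist1h2bq/Hist1h2ao at chr13:21810198-21810464 had none.
Hist1h2ac/Hist1h2bc: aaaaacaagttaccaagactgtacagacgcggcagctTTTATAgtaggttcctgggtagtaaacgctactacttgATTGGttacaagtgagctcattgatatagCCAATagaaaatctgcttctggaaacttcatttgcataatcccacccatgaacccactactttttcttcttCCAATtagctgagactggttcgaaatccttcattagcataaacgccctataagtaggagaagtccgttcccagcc
Hist1h2an/Hist1h2bp: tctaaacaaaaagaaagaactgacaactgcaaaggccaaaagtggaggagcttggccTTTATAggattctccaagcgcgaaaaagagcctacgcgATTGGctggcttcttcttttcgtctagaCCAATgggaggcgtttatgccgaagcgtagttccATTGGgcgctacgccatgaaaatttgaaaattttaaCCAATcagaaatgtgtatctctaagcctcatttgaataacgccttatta
Hist1h2bq/Hist1h2ao: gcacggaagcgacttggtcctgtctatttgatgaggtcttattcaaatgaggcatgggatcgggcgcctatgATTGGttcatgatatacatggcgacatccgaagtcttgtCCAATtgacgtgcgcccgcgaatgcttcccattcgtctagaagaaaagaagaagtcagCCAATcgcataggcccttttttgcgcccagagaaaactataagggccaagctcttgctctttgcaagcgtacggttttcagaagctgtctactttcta

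Nearly all divergent promoters carried a peak of H3K27ac in this muscle. A member peak lay at 699 of the 734 pairs (95.2%) by the replicated list, at 694 (94.6%) by that of replicate 1 and at 698 (95.1%) by that of replicate 2. The peaks were strong and wide for their list. Their signal value, the authors' own measure of enrichment whose scale is not stated, was 31.0 at the median against 4.77 over all peaks of the replicated list. In the list of replicate 1 these medians were 24.1 for member peaks and 5.21 for all peaks, and in that of replicate 2 they were 32.6 and 5.15. Ranked by signal value within the replicated list, the median member stood at percentile 93.2, and within the lists of replicates 1 and 2 at percentiles 91.6 and 93.5. Their width was 1898 bp at the median (quartiles 1239 and 2745 bp, range 186 to 20669 bp), against 860 bp over all peaks, a difference that the choice by overlap also favours. Set against promoters more like them, the difference in signal value was smaller. The strongest peak within 500 bp of the 5' end had a median of 33.0 at pair genes, against 30.9 at coding genes with a divergent long noncoding gene and 30.8 at other CpG-rich coding genes.

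Replicates gave the same pairs and a similar order. A peak lay at 692 pairs in both single-replicate lists, at 2 in that of replicate 1 alone, at 6 in that of replicate 2 alone and at 34 in neither. Between the single-replicate lists, at least 50% of the shorter peak overlapped for 99.8% of the members of replicate 1 and for 96.6% of those of replicate 2. For members of the replicated list the shares were 96.6% in replicate 1 and 99.5% in replicate 2, but that list was made from both replicates. Across these 692 pairs the signal values of both replicates had a Pearson correlation of 0.949 and a Spearman correlation of 0.948, a description over pairs that share the same libraries. Width depended more on the list. At the pairs with a peak in both lists the median width was 1733.5 bp in replicate 1 and 2059 bp in replicate 2, and the peak was wider in replicate 2 at 599 of them. The 8 pairs seen in 1 replicate alone had weak peaks, with signal values of 3.55 for both Stag3 pairs, Gm43720/Stag3 and Gpc2/Stag3, in replicate 1. In replicate 2 the values were 8.50 for Spaca9/Ak8, 4.70 for Wdr54/1700003E16Rik, 4.37 for Kctd19/Lrrc36, 5.27 for Amdhd1/Ccdc38, 4.92 for Il17rb/Chdh and 2.95 for Lrrc63/Lcp1.

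Compared with other coding genes, genes of a pair more often carried the mark. A peak of the replicated list lay within 500 bp of the 5' end for 1379 of the 1448 pair genes (95.2%) and for 10816 of the 19359 other coding genes (55.9%), against 58.6% of all coding genes. In replicate 1 these shares were 94.3% of pair genes and 53.4% of other genes, and in replicate 2 they were 95.1% and 55.7%. Much of that gap ran with base composition. A 5' end was called CpG-rich where the 500 bp to either side had an observed over expected CpG of at least 0.6 and a GC share of at least 50%, which held for 83.1% of pair genes and 42.9% of other genes. Among CpG-rich 5' ends alone, 98.5% of 1203 pair genes and 88.6% of 8308 other genes had a peak. Among pairs, a peak lay at 573 of 582 with both 5' ends CpG-rich, at 56 of 57 with 1 of them CpG-rich and at 70 of 95 (73.7%) with neither.

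The window of 500 bp around a pair gene often also holds the 5' end of its partner, so the base at the 5' end was counted as well. It lay under a peak for 89.2% of pair genes and 49.9% of other coding genes, and among CpG-rich 5' ends for 93.0% of pair genes and 81.4% of the others. Replicate 1 gave 88.1% of CpG-rich pair genes and 77.3% of the others, and replicate 2 gave 92.4% and 81.2%. The difference between both kinds of gene in each list was larger than that between the lists. Other coding genes whose models overlap a coding gene head to head had a peak within 500 bp at 93.0% of 853, and coding genes with a divergent long noncoding gene within 1 kb at 79.7% of 674.

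The shape around a 5' end differed too. Among pair genes with a peak within 500 bp, peaks covered a median of 1000 of the 1000 bp upstream, where the partner lies, and 957 of the 1000 bp downstream. Among other CpG-rich genes without a divergent noncoding gene they covered 793 bp upstream and 1000 bp downstream. Further inside the gene the order turned. At 500 bp into the gene a peak lay over 86.0% of pair genes and 83.9% of these other CpG-rich genes, while at 1000 bp it lay over 46.3% of pair genes and 61.0% of the others, and at 2000 bp over 13.5% of pair genes and 26.8% of the others. At 1000 bp upstream the shares were 59.8% of pair genes and 32.8% of the others. The median width of the peaks was 2053 bp at pair genes and 2083.5 bp at the other CpG-rich genes. A peak over both 5' ends of a pair counts for both genes, in opposite directions. Like cover upstream and downstream over all pair genes is thus largely built in and does not show that each peak was even.

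**Figure D1:**
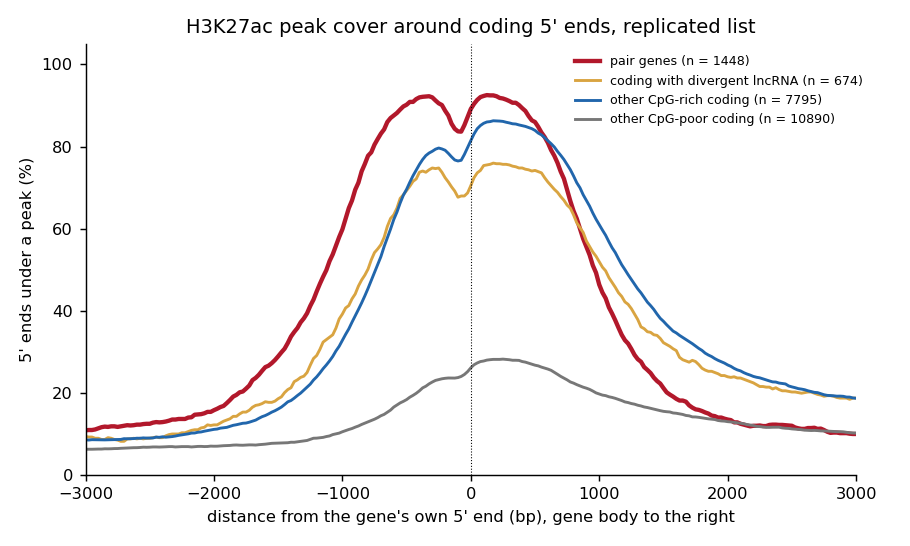
Share of coding 5' ends under a peak of the replicated list (y axis, percent) by distance from the gene's own 5' end (x axis, bp, gene body to the right), for 4 classes of coding gene. Pair genes reach 59.8% at 1000 bp upstream, where other CpG-rich genes reach 32.8%, and 46.3% at 1000 bp downstream, where other CpG-rich genes reach 61.0%.

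At most pairs 1 peak ran across both 5' ends. That was so for 575 of the 734 pairs (78.3%) by the replicated list, 516 (70.3%) by that of replicate 1 and 579 (78.9%) by that of replicate 2. A separate peak lay over each 5' end at 50 pairs, a peak over only 1 of both 5' ends at 58, a peak beside both at 16 and none at 35. Over the window that takes in the interval and 1000 bp of each gene, peaks covered 87.4% at the median, 79.1% in replicate 1 and 87.0% in replicate 2. At 165 pairs the whole window was covered.

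The arrangement went with the gap. With a gap of 1 to 50 bp, 1 peak covered both 5' ends at 97.6% of 125 pairs. That share was 85.1% of 181 pairs at 51 to 100 bp, 75.5% of 200 at 101 to 200 bp and 60.4% of 96 at 201 to 300 bp. It was 73.4% of 64 pairs at 301 to 500 bp and 63.2% of 68 at 501 to 1000 bp, so it did not keep falling beyond 300 bp. Separate peaks were most frequent at 201 to 300 bp, at 22 of 96 pairs (22.9%). The list of replicate 1 had them at 19 of the 96 pairs and that of replicate 2 at 21, not necessarily the same pairs. The median gap was 254.5 bp for pairs with a peak over each 5' end, against 108 bp for those with a single peak. The uncovered stretch between both peaks of a split pair, which lies inside the interval by definition, measured 77 to 360 bp with a median of 120 bp. Only 3 of the 50 split pairs in replicate 1 and 8 in replicate 2 had a single peak over both. The stronger of both peaks had at the median 1.73 times the signal value of the weaker, and more than 2 times at 21 of the 50.

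Where a peak covered only 1 of both 5' ends, it ended inside the interval by definition. Its edge can thus lie no further from the other 5' end than the gap, which was 176 bp at the median of these 58 pairs. The edge lay 87 bp short of the uncovered 5' end at the median (range 11 to 577 bp), and at most 100 bp short at 35 pairs. For 24 of the uncovered genes another annotated start lay under a peak, within 1 kb of the gene-model 5' end for 20 of them. Brca1/Nbr1, chosen after its values were seen, is a pair with only 1 of both 5' ends covered. No other annotated start of Brca1 lay under a peak. The peak of signal value 24.4 (21.1 in replicate 1, 25.6 in replicate 2) covered Nbr1, an autophagy receptor, and left uncovered the 5' end of Brca1, a DNA repair gene, 194 bp from that of Nbr1. A second and weaker member peak lay inside Brca1 in the replicated list and in replicate 2.

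**Figure D2:**
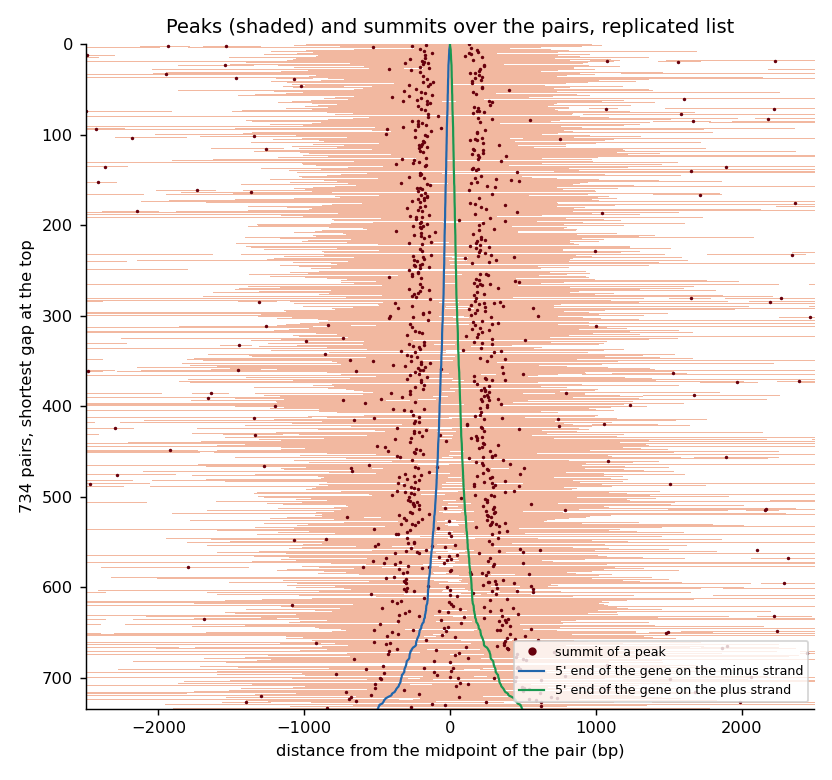
Peaks of the replicated list (shaded), their summits (dots) and both 5' ends (lines) over the 734 pairs, by distance from the midpoint of the pair (x axis, bp), with the shortest gap at the top. Summits form 2 bands inside the genes on either side of the interval, and summits between the 5' ends appear mainly in the lower rows, where the gap is over 200 bp.

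The summit, the base of highest enrichment in a peak, seldom lay between the genes. Of the 575 single peaks, 521 (90.6%) had it on the gene side of a 5' end and 54 (9.39%) had it in the interval. It lay towards the gene on the minus strand at 270 and towards that on the plus strand at 251. The interval took 6.22% of the length of these 575 peaks. Over all gaps the interval thus held somewhat more summits than its share of the length. Summits on a gene side lay 167 bp past the nearer 5' end at the median (quartiles 138 and 215 bp), and 447 of the 521 (85.8%) lay 100 to 500 bp past it. Of the 506 pairs with a single peak in all 3 lists, 455 (89.9%) had the summit in the same place in both replicates, and at 38 the replicates put it in opposite genes.

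Summits between both 5' ends were nearly confined to gaps over 200 bp. They were 3 of 427 single peaks with a gap of 1 to 200 bp (0.703%), where the interval took 3.36% of the peaks' length. With a gap of 201 to 1000 bp they were 51 of 148 (34.5%), where the interval took 12.5% of the length. Below 200 bp the interval thus held fewer summits than its share of the length, and above it more. Replicate 1 had 5 of 386 and 49 of 130, and replicate 2 had 3 of 428 and 53 of 151, in the same order of gaps. The median gap was 334 bp for peaks with the summit between and 92 bp for those with the summit on a gene side.

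**Figure D3:**
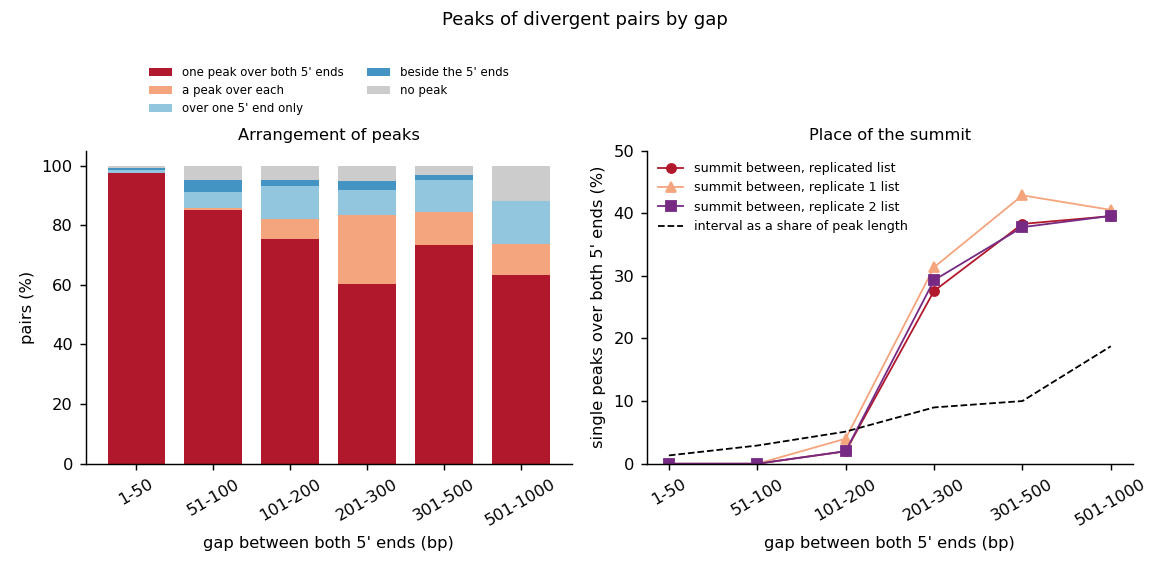
Left, the arrangement of peaks of the replicated list (percent of pairs) by the gap between both 5' ends. Right, the share of single peaks whose summit lay between both 5' ends in 3 lists, with the interval's share of peak length as a dashed line; the share is 0 up to 100 bp and 39.5% at 501 to 1000 bp in the replicated list.

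The reach of a single peak past each 5' end was often unequal. It was 993.5 bp at the median over both sides of the 575 pairs (quartiles 748 and 1388 bp, largest 18223 bp), and the longer reach was 1.50 times the shorter at the median. It exceeded 2 times at 175 pairs (30.4%) and 4 times at 50 (8.70%). Of the 506 pairs that also had a single peak in both replicates, 432 (85.4%) had the same longer side in both. Of the 50 pairs over 4 times, 44 could be compared in this way, and all 44 had the same longer side. The rest lacked a single peak in at least 1 replicate, among them Zfpl1/Cdca5 and Pecr/Tmem169. The summit lay towards the longer side at 359 pairs and towards the shorter at 161. At 17 pairs the peak ran past the far end of 1 of both genes.

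Some of the most unequal peaks barely crossed 1 of both 5' ends, while others had a very long reach on 1 side. The peak at Zfpl1/Cdca5 reached 1075 bp on the side of Zfpl1 and 3 bp on that of Cdca5, which encodes sororin, a regulator of cohesin. It was 16.6 in signal value, 13.7 in replicate 1 and 16.8 in replicate 2, and in replicate 1 it did not reach Cdca5. At Pecr/Tmem169 the reach was 635 bp on the side of Pecr, a peroxisomal reductase, and 4 bp on that of Tmem169, while in replicate 2 it was 645 and 111 bp and in replicate 1 the peak lay beside both 5' ends. At Rad51c/Tex14 the reach was 1259 bp on the side of Rad51c, a recombination gene, and 82 bp on that of Tex14, a gene needed for the bridges between male germ cells. At Iqcg/Rpl35a it was 95 bp on the side of Iqcg and 1328 bp on that of Rpl35a, a ribosomal protein gene. Sec24a/Sar1b, Smim7/Tmem38a and Odf3l1/Cspg4, which also belong to the most unequal pairs, are among the widest. Their shorter reach was 865, 1478 and 859 bp, and their longer reach 11608, 18223 and 10482 bp, in that order.

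Here and below the signal value of a pair is that of its strongest member peak, which was another peak than the one over both 5' ends at 3 of the 575 pairs. The 10 strongest pairs had signal values between 60.7 and 70.5, each with 1 peak over both 5' ends in the replicated list. Sqstm1/Mgat4b led with 70.5 (59.0 in replicate 1, 66.9 in replicate 2). Sqstm1 encodes p62, a receptor of autophagy, and its interval of 62 bp holds 2 GC boxes. Myl12b/Myom1 followed with 67.4 (58.0 and 63.5 in replicates 1 and 2) and Gart/Son with 66.3 (56.0 and 62.6). Myom1 encodes myomesin of the sarcomeric M-band, Gart acts in purine synthesis and Son in splicing. Next were Safb2/Safb with 63.6 (52.2 and 62.4), a pair of paralogous scaffold attachment genes that had a peak over each in replicate 1, and Ppp1r15a/Plekha4 with 63.1 (53.8 and 63.0). Ppp1r15a encodes GADD34, which guides the dephosphorylation of eIF2α in the stress response, and the interval beside it holds the CRE palindrome. The other 5 were Mrpl54/Apba3 at 62.2, Adam9/Tm2d2 at 62.1, Tshz1/Zadh2 at 61.7, Dnajb4/Fubp1 at 60.9 and Ddx5/Cep95 at 60.7. All 10 had values of 49.01 or more in both replicates.

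Wide peaks were frequent at pairs with a gene of the skeletal muscle list. Of 222 listed muscle genes, 8 (3.60%) lay in a pair, against 6.96% of all coding genes. A peak lay at 7 of these 8 pairs in the replicated list and at 6 in each replicate, beside 95.2% of all pairs. The median width was 8106 bp, against 2061 bp over all pairs with a peak, and 5 of the 8 had a peak over 5000 bp wide, against 45 of 734 pairs (6.13%). Their signal value was 36.3 at the median, against 32.9 over all pairs with a peak. The list was written with results of these data known, so the counts support nothing by themselves. It also holds Mpc2, a mitochondrial carrier subunit that is not particular to muscle. The median width of 8106 bp is that of its pair, Dcaf6/Mpc2, which is also among the 5 with a peak over 5000 bp.

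The longest peak of the set lay at Smim7/Tmem38a, where Tmem38a encodes the TRIC-A channel of the sarcoplasmic reticulum. It was 20669 bp wide (10328 bp in replicate 1, 20653 bp in replicate 2). It reached 18223 bp on the side of Tmem38a, past the end of that gene of 15228 bp, and 1478 bp on that of Smim7. At Tbc1d10b/Mylpf, where Mylpf is the fast myosin regulatory light chain, it was 9702 bp wide (9019 and 9534 bp in replicates 1 and 2), with 7180 bp on the side of Mylpf and 2099 bp on that of Tbc1d10b. This reach too passes the end of Mylpf, whose model is 5409 bp long. At Actn3/Zdhhc24, where Actn3 is the alpha-actinin of fast fibres, it was 5738 bp wide (3083 and 6834 bp), with 3934 bp on the side of Actn3 and 1044 bp on that of Zdhhc24.

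At the other 3 single peaks of muscle pairs the longer reach was on the side of the partner. At Myl12b/Myom1 the peak of 15633 bp (12623 and 15589 bp in replicates 1 and 2) reached 2460 bp on the side of Myom1 and 12747 bp on that of Myl12b, a regulatory light chain of nonmuscle myosin. At Dcaf6/Mpc2 the peak of 8106 bp (7656 and 8131 bp) reached 3469 bp on the side of Mpc2, a subunit of the mitochondrial pyruvate carrier, and 4474 bp on that of Dcaf6. At Ndufa5/Asb15 the peak of 2387 bp (2184 and 2003 bp) reached 534 bp on the side of Asb15, a muscle-enriched ankyrin and SOCS box gene, and 1721 bp on that of Ndufa5, a subunit of respiratory complex I. Further peaks of the replicated list lay inside Asb15, from 1708.5 to 2109.5 bp and from 2389.5 to 6188.5 bp past the midpoint, and are not part of this reach. Counting the single peak alone, the reach was thus longer towards the muscle gene at 3 of 6 pairs, and at 3 of 6 in each replicate. The signal value differed between these pairs. It was 53.2 (42.1 and 55.8 in replicates 1 and 2) at Smim7/Tmem38a and 50.1 (43.1 and 48.9) at Dcaf6/Mpc2, but 18.9 (15.2 and 26.97) at Tbc1d10b/Mylpf. It was 36.3 (29.4 and 37.0) at Actn3/Zdhhc24 and 31.2 (23.6 and 35.4) at Ndufa5/Asb15.

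**Figure D4:**
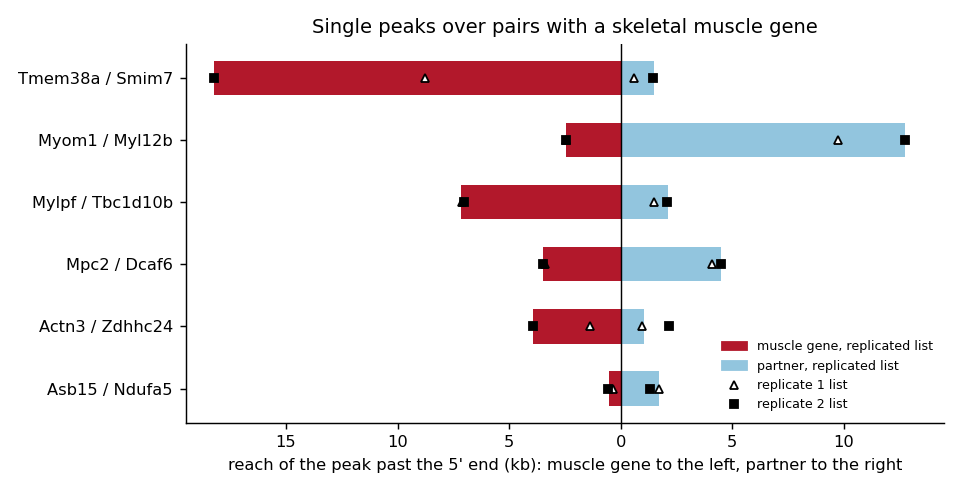
Reach of the single peak past the 5' end of the muscle gene (left) and of its partner (right), in kb, for the 6 muscle pairs with 1 peak over both 5' ends; bars are the replicated list, triangles replicate 1 and squares replicate 2. Tmem38a, Mylpf and Actn3 have the longer side, and at Myom1, Mpc2 and Asb15 the partner has it.

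The remaining pair of muscle genes were marked at another start. At Klc3/Ckm, where Ckm is muscle creatine kinase, a peak of 445 bp with a signal value of 2.45 lay over the 5' end of Klc3 alone, and neither replicate had one. A further peak of 865 bp with a signal value of 9.96 lay inside Ckm in the replicated list. It was within 1 kb of the gene-model 5' end but beyond the 500 bp that made a peak a member. The gene model of Ckm begins upstream of another annotated start, 6249 bp away, which lay under a peak of 9623 bp with a signal value of 49.8. At Smyd1/Cd8b1, where Smyd1 is a methyltransferase of heart and skeletal muscle, there was no peak at the pair. Another start of Smyd1, 59952 bp away, lay under a peak of 6329 bp with a signal value of 41.0. For both genes the pair is thus set by the outermost annotated 5' end.

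The other pairs among the 8 widest do not hold a listed muscle gene. At Sec24a/Sar1b, both genes of the COPII coat that buds from the endoplasmic reticulum, the peak was 12527 bp wide (9824 and 12448 bp in replicates 1 and 2) and reached 11608 bp on the side of Sar1b. At Odf3l1/Cspg4 it was 11696 bp wide (5535 and 11700 bp) and reached 10482 bp on the side of Cspg4, the proteoglycan NG2 that is known from pericytes. Its signal value was low for that width, at 17.2. At Aimp2/Pms2 it was 10871 bp wide (5468 and 11211 bp), with 9874 bp on the side of Aimp2, past the end of that gene of 7144 bp. At Tatdn1/Ndufb9 it was 10615 bp wide (3127 and 9917 bp), at Lrrc75a/Mmgt2 10224 bp (7911 and 10185 bp) over Lrrc75a alone, and at Plcd3/Acbd4 10168 bp (1922 and 10249 bp). At all 8 widest pairs the peak of replicate 1 was narrower than that of replicate 2.

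Housekeeping classes were marked throughout. All 22 pairs with a gene of the respiratory chain or of its assembly had a peak in each of the 3 lists, with a median signal value of 39.9 against 32.9 over all pairs with a peak. The highest were Atp5c1/Kin at 56.8 (48.6 and 55.8 in replicates 1 and 2) and Sdha/Ccdc127 at 56.1 (47.8 and 52.7). Atp5c1 is a subunit of the ATP synthase and Sdha of succinate dehydrogenase. The lowest were Ndufaf2/Ercc8 at 14.7 (12.4 and 14.8) and Cebpz/Ndufaf7 at 21.8 (17.1 and 25.5), whose mitochondrial genes are assembly factors of complex I. Both of the lowest pairs had 1 peak over both 5' ends in the replicated list.

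All 18 pairs of the mitochondrial ribosome had a peak in the 3 lists, with a median of 38.1. They ranged from Helq/Mrps18c at 12.4 and Mitd1/Mrpl30 at 15.2 up to Mrps12/Sars2 at 55.1 and Mrpl54/Apba3 at 62.2. Mrps12/Sars2 joins a mitochondrial ribosomal protein to the mitochondrial seryl-tRNA synthetase. All 7 proteasome pairs had a peak, with a median of 43.2, from Dnajc2/Psmc2 at 24.0 and Ftsj3/Psmc5 at 32.2 up to Psma7/Ss18l1 at 46.9 and Cep76/Psmg2 at 54.5. All 18 pairs with a chaperone or cochaperone had one, with a median of 34.7, from Sirt1/Dnajc12 at 23.2 up to Vipas39/Ahsa1 at 47.7 and Dnajb4/Fubp1 at 60.9, where Ahsa1 activates the ATPase of HSP90. All 5 pairs of aminoacyl-tRNA synthetases had one, with Kars/Terf2ip at 24.98 among the lower and S100pbp/Yars at 40.8 and Mrps12/Sars2 as the highest. Of 9 pairs with a gene of the cytosolic ribosome, 8 had one. Since 95.2% of all pairs had a peak, these counts do not set the classes apart. The lists of common gene names gave like counts, with a peak at 17 of 18 pairs with a Zfp gene, 22 of 23 with a Tmem gene and 14 of 15 with a solute carrier. Olfactory and vomeronasal receptors were nearly absent from pairs, with 1 of 1457 listed genes, and of 113 keratins none lay in a pair.

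DNA replication and repair genes were frequent in pairs. Of 172 listed genes, 44 (25.6%) lay in a pair, against 6.96% of all coding genes. All 44 of their pairs had a peak in the 3 lists, beside 95.2% of all pairs in the replicated list. Their signal value was 28.5 at the median and their window was covered to 77.0%, against 32.9 and 87.4% over all pairs. The highest were Rad17/Taf9 at 59.1 (50.4 and 56.6 in replicates 1 and 2) and Gen1/Smc6 at 55.6 (45.2 and 54.1). Rad17 loads the checkpoint clamp, and Gen1 resolves Holliday junctions. The lowest were Rad54l/Pomgnt1 at 11.6 (7.76 and 14.3), where Rad54l acts in recombination, and Mbd4/Ift122 at 14.4 (11.6 and 15.5), where Mbd4 is a DNA glycosylase and no single peak covered both 5' ends in any of the 3 lists.

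**Figure D5:**
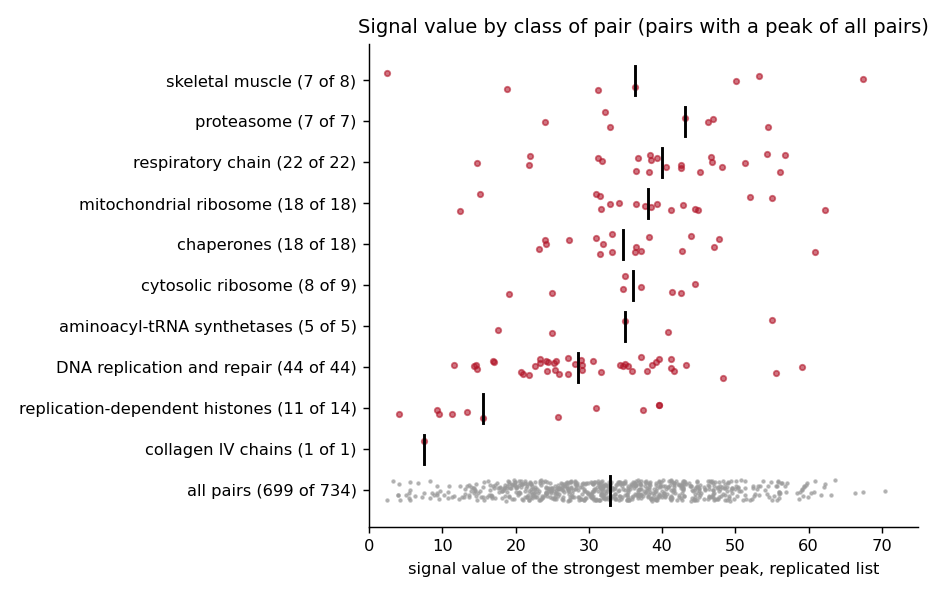
Signal value of the strongest member peak in the replicated list (x axis) for pairs of 10 gene classes and for all pairs; each dot is a pair, the black line is the median, and the numbers give pairs with a peak of all pairs. Histone pairs have a median of 15.6 and proteasome pairs of 43.2, against 32.9 over all 699 pairs with a peak.

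Histone pairs were the most weakly marked of the classes with more than 1 pair. Of 67 genes listed as replication-dependent histones, a class expressed mainly in S phase, 27 (40.3%) lay in 14 pairs. A peak lay at 11 of the 14 pairs in the replicated list and at 10 in each replicate, beside 95.2% of all pairs in the replicated list. The pairs without one in the replicated list were Hist1h2bq/Hist1h2ao, Hist1h2ap/Hist1h2br and Hist1h2ba/Hist1h2aa. The median signal value was 15.6, against 32.9 over all pairs with a peak. The covered window was 62.3% at the median, against 87.4% over all pairs. The strongest was the peak of 4973 bp that Bola1/Hist2h2ab and Hist2h2ac/Hist2h2be share, with 39.5 (33.2 and 40.4 in replicates 1 and 2). The weakest were Hist1h2ah/Hist1h2bk at 4.08, absent from both replicates, and Hist1h2bl/Hist1h2ai at 9.27 (7.58 and 11.2). Of the pairs whose sequence is printed, Hist1h2ac/Hist1h2bc had 31.0 (23.7 and 32.2), but in the replicated list this strongest peak lay inside Hist1h2bc, and the peak over the printed interval had 16.7 (14.3 in replicate 1). In replicate 2 the peak of 32.2 covered the interval itself. The pair Hist1h2an/Hist1h2bp had 9.52 (7.58 and 9.62). Histone genes are near-identical copies, so reads may be shared between them or left out, and the sources used here do not say how the authors treated such reads.

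The histone pairs also shared a sequence layout. In the 300 bp centred on the midpoint, all 14 held CCAAT at least 2 times, with a median of 3 matches and up to 5, whereas 43.5% of the other 720 pairs held it at all and 18.8% at least 2 times. TATAAA was found at 10 of the 14 histone pairs and at 23 of the other 720 (3.19%). Their gap was 259.5 bp at the median, against 125 bp for the other pairs. The printed interval of Hist1h2bq/Hist1h2ao, a pair with no peak, holds 3 CCAAT matches and no TATAAA.

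Over all pairs the promoter strings were those of CpG-rich promoters. In the 300 bp at the midpoint, GGGCGG was found at 67.8% of pairs, CCAAT at 44.6%, CCGGAAGT at 13.2%, AANATGGCG at 7.77%, TGACGTCA at 4.50%, TATAAA at 4.50% and the NRF1 site at 2.997%. In windows of the same length at other CpG-rich 5' ends, from 250 bp before to 50 bp after, the shares were 71.1% for GGGCGG, 36.6% for CCAAT, 7.53% for CCGGAAGT, 4.75% for AANATGGCG, 3.73% for TGACGTCA, 6.25% for TATAAA and 2.19% for the NRF1 site. Over all other coding 5' ends they were 41.8%, 38.2%, 4.16%, 2.55%, 2.26%, 13.4% and 1.12% in that order of strings. The ETS, YY1, CCAAT, CRE and NRF1 strings were thus found more often at pairs than at either set of other genes. The GC box was found more often than at all other genes but not than at CpG-rich ones, and TATAAA less often than at either set. Windows cut at the pair genes' own 5' ends in the manner of the other genes, added after the data were seen, gave 13.3% for CCGGAAGT, 7.60% for AANATGGCG and 43.6% for CCAAT.

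Textbook pairs were found on both sides of the rule. Atm/Npat, which joins the kinase of the DNA damage response to a coactivator of histone genes, had a gap of 307 bp and 1 peak of signal value 24.1 over the whole window (18.1 in replicate 1, and 31.2 in replicate 2, which had a peak over each 5' end). Mcm4/Prkdc, which joins a subunit of the replicative helicase to the catalytic subunit of DNA-PK, had a gap of 466 bp and 14.7 (12.5 and 18.1). Col4a4/Col4a3, chains of basement membrane collagen that are best known from the kidney glomerulus, had 7.50 (5.77 and 8.22), with 533 bp on the side of Col4a4 and 838 bp on that of Col4a3. It was weak for the set, and its printed interval holds none of the strings searched. Hspd1/Hspe1, Surf1/Surf2, Col4a1/Col4a2, Ppat/Paics and Tap1/Psmb9 are no members because their gene models overlap by 21 to 271 bp.

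Most pairs at both ends of the range of gaps carried a peak. Bag4/Lsm1 and Slc7a6os/Prmt7, whose 5' ends are neighbouring bases, had signal values of 33.1 (26.7 and 38.5 in replicates 1 and 2) and 44.7 (36.0 and 45.1). Dhrs1/Nop9, Bag5/Apopt1 and Eif2b1/Gtf2h3, with gaps of 3, 4 and 9 bp, had 20.4, 36.4 and 24.8, while Wdr54/1700003E16Rik, with 7 bp, had 4.25. Just inside the limit of 1 kb, Zfyve26/Rad51b (978 bp) had 24.3, Btf3l4/Txndc12 (987 bp) had 31.7 and Asphd1/Sez6l2 (981 bp) had no peak. Just outside it, Gpr108/Trip10 (1009 bp) had 34.9, Sgsm2/Tsr1 (1011 bp) 34.9 and Dirc2/Hspbap1 (1019 bp) 39.6, each with 1 peak over both 5' ends.

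The 35 pairs without a peak in the replicated list were mostly poor in CpG, since 25 of them had neither 5' end CpG-rich. Of the 35 pairs, 31 had none in any of the 4 lists. The 10 of them with the shortest gap, leaving out histones, were Best1/Rab3il1, Rnf151/Rps2, 4930430F08Rik/1700017N19Rik, Ddx25/Pus3, Dgcr2/Tssk2, Il11/Tmem190, Ccnt1/4930415O20Rik, Patl2/Terb2, Zfp558/Mbd3l1 and Fam217a/4933417A18Rik. Best1 is a chloride channel of the retinal pigment epithelium. Ddx25 is a helicase of male germ cells, Tssk2 a kinase of spermatids and Terb2 a telomere protein of meiosis. Both 5' ends were CpG-rich at Ddx25/Pus3 alone among these 10. In the interval printed for Patl2/Terb2 there are 2 CCAAT boxes and a GC box, but no peak within 500 bp.

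Some of these pairs were absent only at the outermost 5' end. At 13 of the 35 another annotated start of 1 of both genes lay under a peak, and at 22 none did. Rps2, a protein of the small ribosomal subunit, had a peak of signal value 43.9 at a start 1947 bp away, Ccnt1, the cyclin of P-TEFb, had 43.4 at 3287 bp, and Dgcr2 had 29.0 at 6869 bp. At these pairs the missing peak thus concerned the start shared with the partner and not the gene. The midpoint windows of the 35 pairs held GGGCGG in 31.4% and CCAAT in 54.3%, against 69.7% and 44.1% in the 699 pairs with a peak.

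The tissue matched its label by the markers used. A peak lay within 1 kb of the 5' end of all 8 skeletal muscle markers, among them Acta1, Myh4 and Tnnt3, and of 0 of 3 heart, 0 of 2 liver and 0 of 3 neuronal markers.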

How the data were processed

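H3K27ac ChIP-seq of gastrocnemius came as 4 narrowPeak lists on mm10, 1 from each biological replicate, 1 from both pooled and 1 replicated list. The authors deposited for each peak a signal value, whose scale is not stated and which was ranked and compared only within a list. The q-value of each peak, deposited as −log10, served 1 alternative, and the p-value was not used. Steps not given in the sources used here include alignment, peak calling and its thresholds. Of the control library nothing was analysed here. The lists hold no read counts, so depth is unknown and no interval is given.

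From these lists the peaks at each pair, the reach of single peaks, the place of their summits and the covered base pairs were computed with Python 3.11.15, pandas 2.3.3, numpy 2.4.6 and pysam 0.24.0. Genes were those of GENCODE M21, basic set, and coordinates are counted from 1. Motifs were searched as fixed strings on both strands. Sequences were read from the GRCm38.p6 genome, the mm10 build, which was identical to the RefSeq promoter table in 31396 of 31396 windows on these chromosomes. The scripts were tested on simulated data. The pairs, gene lists and motifs were chosen with earlier results of these data known. Pairs were named by rank (10 by signal, 8 by width, 8 by unequal reach, 6 by shortest gap), by class with up to 4 examples from both ends of the signal, or as textbook pairs, and other choices are marked in the text. A few pairs that meet these rules are not reported here. Alternatives were the other lists, a −log10 q of at least 5, other limits of gap, extension and distance, overlapping models, transcript starts and CpG-rich 5' ends only.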

Additional observations from a re-analysis of the deposited data

How the results depend on the processing

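The alternatives kept the direction of the difference between pair genes and other coding genes, and moved the other values as follows. The share of pairs with a peak, 95.2%, ranged from 94.6% to 95.1% when either replicate was left out. It was 95.9% with gaps of at most 500 bp, 94.5% with overlapping models added, 93.1% with an extension of 0 bp and 95.6% with 1000 bp. Leaving out either replicate gave 70.3% to 78.9% of pairs with both 5' ends in 1 peak, a covered window of 79.1% to 87.0%, a median signal percentile of 91.6 to 93.5 (93.2 with both) and a difference of 39.4 to 40.9 percentage points, against 39.4 with both. Without replicate 2 the peaks are narrower, and the cause was not tested. That difference was 38.3 points with transcript starts and 9.85 points among CpG-rich 5' ends.

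The share of member peaks with the summit between the 5' ends was 7.82%. It was 7.91% in the pooled list, 7.86% with a −log10 q of at least 5, 8.06% to 8.09% with either replicate left out, 5.24% with gaps of at most 500 bp, 9.62% with transcript starts, 8.68% with an extension of 0 bp and 7.62% with 1000 bp. It was 23.3% with overlapping models added, where the interval is the stretch both genes share. No paired analysis was possible because no result comes from a test between groups. Depth is unknown, so a missing peak may be a weak one.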
